A study of Mus musculus with 6 samples.

Results

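Oxidative phosphorylation, the process by which mitochondria make most of a neuron's ATP, was examined gene by gene in RNA bound to ribosomes of S100a10-expressing cells of the mouse cortex. The members are the probe sets that carry 1 gene symbol starting with Nduf, Uqcr or Atp5, a symbol of the Cox4 to Cox8 families, or Sdha, Sdhb, Sdhc, Sdhd, Cyc1 or Cycs. They comprised 184 of 45037 probe sets that are not array controls and stood for 92 of 18193 genes. Of these, 157 probe sets of 86 genes had a mean of 50 or more in at least 1 group and were tested, among 22200 probe sets and 12214 genes tested in all. All 86 genes reached that minimum in both groups. Another 10 probe sets that fit the rule carry several symbols and were left out.

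The FLX group drank fluoxetine, a selective serotonin reuptake inhibitor, at 0.167 mg/ml in 1% saccharin for 15 to 18 days, and the VEH group drank 1% saccharin over the same days. Each group has 3 arrays, labelled biological replicates 1 to 3. All mice of both groups lack p11, the protein that S100a10 encodes, and carry a bacterial artificial chromosome in which S100a10 sequences drive the tagged ribosome (line ES691/p11 KO), so that tagged ribosomes and their RNA can be purified (translating ribosome affinity purification, TRAP). They were backcrossed for 3 to 5 generations onto C57BL/6 from FVB. The comparison asks what fluoxetine does to translated mRNA of these cells in the absence of p11. The S100a10 driver also labels some cells that are not neurons, according to the submitters, and in bulk RNA of this kind fewer cells of a type cannot be told apart from less RNA per cell. The labels do not say whether a replicate is 1 animal or a pool, so the p-values measure only the spread between these 6 arrays.

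The respiratory chain moves electrons from NADH (complex I) and from succinate (complex II) to ubiquinone, on to cytochrome c (complex III) and then to oxygen (complex IV). Complexes I, III and IV pump protons out of the matrix while they do so. ATP synthase (complex V) lets the protons back in and uses the flow to turn its rotor and make ATP. Most subunits are encoded in the nucleus, are needed in fixed proportions and are built into complexes that also hold subunits encoded by mitochondrial DNA. In the cortex, synaptic transmission and the restoring of ion gradients after firing are large users of this ATP.

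In both groups the array numbered 3 was unlike the other 4. Over all tested probe sets these arrays correlated with the rest at r = 0.867 to 0.916, while the arrays of replicates 1 and 2 correlated with each other at 0.987 to 0.995. Over the 86 member genes the arrays were closer, at r = 0.955 to 0.999, and replicate 3 was again in the lower pairs. Array medians over all probe sets were 38.5 to 41.9. A brighter S100a10 probe set, of a type that may match other transcripts, read 2222, 2037 and 349 in FLX and 3111, 2248 and 643 in VEH replicates 1 to 3, and the other 2 lay below 50. These probes do not check the genotype, because neither the labels nor the files place them against the deletion. Markers of layer 5 pyramidal neurons were present, with summed intensities of 51522 to 57175 in FLX and 46651 to 48928 in VEH arrays over 8 of 10 listed genes. Pcp4, at 28338 to 43711, made up most of each sum. Single markers moved apart in replicate 3: its log2 value minus the mean of replicates 1 and 2 ran from -1.68 to 1.75 in FLX and -2.16 to 1.31 in VEH. All 8 had positive log2 differences (FLX minus VEH, median 0.27). Astrocyte markers had a median of 0.28 with 2 of 7 negative. The part of these shifts in the differences of the members was not tested.

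No member differed between FLX and VEH at the threshold. With limma, 0 of the 86 genes had an adjusted p under 0.05, as had 0% of all tested genes, and the adjusted p was 0.9998 for every member. Of the 86 genes 39 had a log2 difference, FLX minus VEH, within 0.1 of 0, against 3974 of 12214 tested genes. A difference of 0.5 or more was found for 4 members (Uqcr10, Atp5e, Cox6b2 and Cox7a1, all lower in FLX), against 728 of the 12214. At an unadjusted p under 0.05 the member genes numbered 0 higher and 0 lower, against 0.172% and 0.131% of all tested genes. Among the 157 member probe sets 2 had an unadjusted p under 0.05, both of Uqcr10, against 0.374% of all tested probe sets. With the replicate number as a block the counts at an unadjusted p under 0.05 grew to 2 member genes (Cox6b2 and Cox7a1, background 7.6%) and 8 member probe sets (background 7.95%). The smallest adjusted p among members was then 0.623, so none passed.

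The balance of signs leaned towards lower values in FLX, by small amounts. Of the 86 genes 54 (62.8%) had a negative log2 difference, against 42% of all tested genes, and the median was -0.04 against 0.05 for all tested genes. Lower values in FLX in all 3 pairs of equal replicate number were found for 26 genes (30.2%, background 13.6%), and higher values in all 3 pairs for 15 (17.4%, background 20.2%). The FLX arrays lay wholly below the VEH arrays for 6 genes (6.98%, background 1.65%), which were Ndufv3, Ndufb7, Ndufa13, Ndufs8, Atp5e and Atp5k. They lay wholly above for Ndufa9 and Atp5b (2.33%, background 2.61%). Members tend to have bright probe sets, and 50 of the 86 had a mean of 10000 or more. Of those, 30 (60%) were negative, against 231 of 622 (37.1%) among all tested genes that bright. These counts over the members are a description, not a test, and they depend on the arrays used: without the FLX replicate 3 array the median was 0.01 with 37 negative genes, and without both replicate 3 arrays it was -0.02 with 51.

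**Figure D1:**
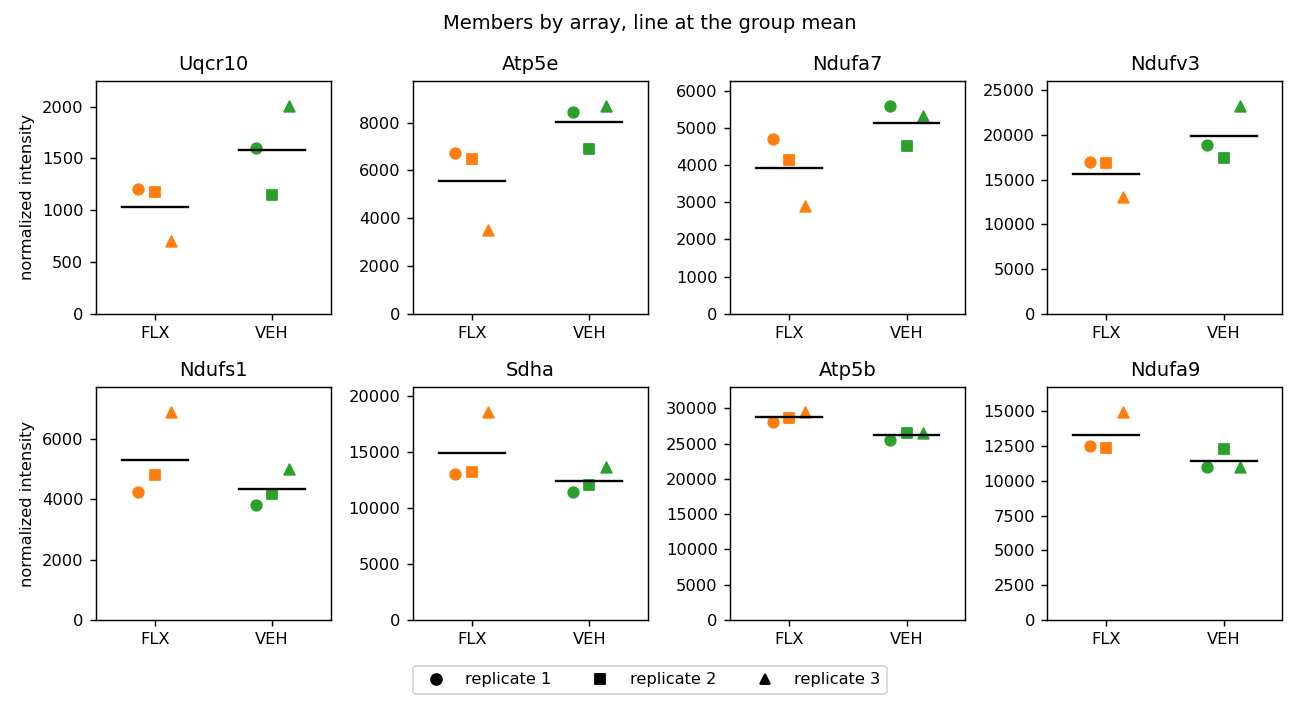
Normalized intensity (linear scale from 0) of 8 members in each array, FLX left and VEH right, with the replicate number as marker shape and the group mean as a line. Uqcr10, Atp5e, Ndufa7 and Ndufv3 are lower on average in FLX, with the FLX replicate 3 array lowest of the 6, while for Ndufs1, Sdha, Atp5b and Ndufa9 that same array is highest.

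Complex I, the entry point for electrons from NADH, has a catalytic core and a shell of accessory subunits. Of the 6 core genes tested, 4 were negative, with a median log2 difference of -0.03 and a range of -0.15 to 0.27. Ndufs1, the core subunit with the most iron-sulfur clusters, read 4231, 4795 and 6888 in FLX arrays 1, 2 and 3, against 3818, 4159 and 5018 in the VEH arrays of those numbers. Each FLX array was above the VEH array of the same number, but the groups overlapped, and the log2 difference was 0.27 (SE 0.26). Ndufs3, another core subunit of the arm that reaches into the matrix, averaged 12672 ± 976 in FLX and 11581 ± 263 in VEH arrays (SD, n = 3 each), a log2 difference of 0.13 (SE 0.18).

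Ndufs7 and Ndufs8, which carry the iron-sulfur clusters on the way to ubiquinone, had negative differences of -0.08 (SE 0.18) and -0.15 (SE 0.17). The Ndufs8 arrays read 18769, 19509.9 and 17898 in FLX, against 20993, 20637 and 20677 in VEH replicates 1 to 3. These do not overlap, although the gap between the nearest arrays is small beside their levels. The subunits that bind the NADH-oxidizing flavin, Ndufv1, and the iron-sulfur cluster next to it, Ndufv2, were at -0.02 (SE 0.27) and -0.04 (SE 0.18). By their brightest probe sets the core genes therefore ran in both directions, with Ndufs1 the only one of the 6 beyond 0.2. A less bright Ndufv1 probe set was higher in FLX in all 3 pairs, at 0.25 (SE 0.20).

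The accessory subunits of complex I, which stabilise the enzyme and are needed for its assembly, had 18 of 27 negative genes (66.7%, background 42%) and a median of -0.05. Lower values in all 3 pairs were found for 11 (40.7%, background 13.6%) and higher ones for 3 (11.1%, background 20.2%). That median was 0.01 when FLX replicate 3 was left out and 0.04 when VEH replicate 1 was. Ndufa7, an accessory subunit of the matrix arm, read 4714, 4129 and 2896 in FLX, against 5591, 4501 and 5319 in VEH replicates 1 to 3. FLX replicate 3 was the lowest of the 6 arrays and FLX replicate 1 lay within the VEH range, and the log2 difference was -0.42 (SE 0.25). Ndufv3, which sits beside the NADH-binding site, read 17000.4, 16889 and 13062 in FLX, against 18929.9, 17423 and 23251 in VEH arrays, at -0.34 (SE 0.22). Here the groups did not overlap, and replicate 3 held the lowest FLX and the highest VEH value.

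Ndufb7 and Ndufa13 were also separated between the groups, by pair 3 above all. Ndufb7, on the side of the inner membrane that faces the intermembrane space, read 13974, 13407 and 11700.4 in FLX, against 15116, 14340.1 and 19311 in VEH replicates 1 to 3. Ndufa13, also known as GRIM-19, read 26368, 26788 and 16699.6 in FLX, against 27842, 26956 and 26942 in VEH arrays. For both, the FLX and VEH arrays of replicates 1 and 2 were close and those of replicate 3 far apart, with log2 differences of -0.72 and -0.69 in that pair. Over all 6 arrays Ndufb7 was at -0.31 (SE 0.21) and Ndufa13 at -0.26 (SE 0.25).

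The accessory subunits that were higher in FLX included Ndufa9, at the junction of the matrix and membrane arms, and Ndufs4, whose loss in mice causes an encephalopathy resembling Leigh syndrome. Ndufa9 read 12512, 12379.8 and 14945 in FLX, against 11012, 12323 and 11022 in VEH replicates 1 to 3. The lowest FLX array was only just above the highest VEH array, and the log2 difference was 0.21 (SE 0.19). Ndufs4 read 4458, 3911 and 4245 in FLX, against 3827, 4374 and 2860.0 in VEH arrays, also at 0.21 (SE 0.23), with overlapping groups and the FLX array lower in pair 2. The other accessory genes lay between -0.31 (Ndufb2) and 0.20 (Ndufb3), and 12 of the 27 were within 0.1 of 0.

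Complex I is built from modules with the help of assembly factors, of which 8 carry an Nduf symbol. They had a median of 0.12 with 3 negative genes. Ndufaf1, which helps to build the membrane arm, read 1213, 1105 and 1810.0 in FLX, against 1107, 1048 and 1174 in VEH replicates 1 to 3, with a log2 difference of 0.28 (SE 0.25). Ndufaf5, which hydroxylates an arginine of Ndufs7, read 982, 799 and 1226 in FLX, against 781, 875 and 780.2 in VEH arrays, at 0.28 (SE 0.23). For both genes the highest of the 6 values was the FLX replicate 3 array, and the groups overlapped.

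Ndufaf8, the partner that stabilises Ndufaf5, went the other way. It read 3359, 3032 and 1327 in FLX, against 3800.3, 3323 and 2843 in VEH replicates 1 to 3, a log2 difference of -0.47 (SE 0.39). FLX replicate 3 was by far the lowest array, and without it the difference was -0.05. VEH replicate 3, which stays in that fit, was the lowest VEH array. Pairs 1 and 2 were at -0.18 and -0.13. Ndufaf2, a late-acting chaperone of the enzyme, was at -0.07 (SE 0.20). The partners Ndufaf5 and Ndufaf8 thus had opposite signs in these arrays. The groups overlapped for both, and neither passed the threshold.

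Complex II, which is also the succinate dehydrogenase of the citric acid cycle and is wholly encoded in the nucleus, had 3 of 4 genes above 0 and a median of 0.14, which was 0.01 without the VEH replicate 3 array. Sdha, the flavoprotein that oxidizes succinate, read 13038, 13247 and 18577 in FLX, against 11407, 12089 and 13655 in VEH replicates 1 to 3. Every FLX array exceeded its VEH partner, while VEH replicate 3 exceeded FLX replicates 1 and 2, and the log2 difference was 0.26 (SE 0.22). A less bright Sdha probe set read 5772, 6381 and 7211 in FLX, against 5194, 5663 and 4703 in VEH arrays, with no overlap and a difference of 0.31 (SE 0.20).

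Sdhd, which with Sdhc anchors the enzyme in the membrane, read 3156, 3191 and 2422 in FLX, against 3116, 3065 and 1476 in VEH replicates 1 to 3, at 0.26 (SE 0.35). That difference came from replicate 3, since pairs 1 and 2 were at 0.02 and 0.06 and pair 3 at 0.71. Without the VEH replicate 3 array, and with that of FLX kept, it was -0.09. A second, slightly dimmer Sdhd probe set was at -0.01 (SE 0.20), with 0.13 in pair 3. The other anchor, Sdhc, was at 0.02 (SE 0.29), and the iron-sulfur subunit Sdhb at -0.04 (SE 0.21). The 4 subunits of this enzyme thus differed in sign.

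Complex III, which passes electrons from ubiquinol to cytochrome c, had 5 of 9 genes below 0 and a median of -0.04, which was 0.01 when FLX replicate 3 or VEH replicate 1 was left out. Its small subunits were on the lower side by their brightest probe sets. A less bright probe set of Uqcrb, 1 of these subunits, was at 0.21 (SE 0.53), above 0 in pair 3 only. Uqcr10, a small subunit of the membrane part, read 1204, 1175 and 702 in FLX, against 1599, 1145 and 2007 in VEH replicates 1 to 3. FLX replicate 2 was slightly above VEH replicate 2, the pair 3 arrays were far apart, and the log2 difference was -0.63 (SE 0.33). The other 2 probe sets of Uqcr10, both less bright, separated the groups completely. The dimmest read 266, 206 and 233 in FLX, against 387, 295 and 435 in VEH arrays, at -0.65 (SE 0.23, limma unadjusted p = 0.03, adjusted p = 0.9998). The remaining one, whose name ends in x_at, was at -0.64 (SE 0.23, limma unadjusted p = 0.0327, adjusted p = 0.9998). All 3 probe sets therefore gave the same size, and none passed the threshold.

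Uqcrq, which lies beside cytochrome b, read 6081, 5679 and 4094 in FLX, against 6704, 5453 and 5170.3 in VEH replicates 1 to 3, at -0.14 (SE 0.24). The catalytic and core subunits lay above 0. Uqcrfs1, the Rieske iron-sulfur protein, averaged 12835 ± 2785 in FLX and 11174 ± 803 in VEH arrays (SD, n = 3 each), a log2 difference of 0.18 (SE 0.23). Uqcrc2, a core subunit that faces the matrix, averaged 42603 ± 9604 in FLX and 38386 ± 4304 in VEH arrays, at 0.13 (SE 0.24). In both genes FLX replicate 3 was the highest array, and without it Uqcrfs1 was at 0.01 and Uqcrc2 at -0.04. VEH replicate 3, which stays in that fit, was the highest VEH array for both. In pairs 1 and 2 Uqcrfs1 was at 0.19 and -0.06, and Uqcrc2 at 0.17 and -0.06. A less bright Uqcrc2 probe set was higher in FLX in all 3 pairs, at 0.21 (SE 0.25). Cyc1, the haem-bearing cytochrome c1, was at 0.07 (SE 0.18). Cycs, the soluble cytochrome c that carries electrons to complex IV, read 26928, 25492 and 21771 in FLX, against 28049, 25105 and 21913 in VEH arrays, and its difference was -0.02 (SE 0.20).

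Complex IV, cytochrome c oxidase, reduces oxygen to water, and its nuclear subunits include pairs of isoforms that are used in different tissues. All 9 widely expressed subunits that were tested lay below 0 by their brightest probe set. They ranged from -0.19 to -0.01 with a median of -0.06, and 7 of them lay within 0.1 of 0. Cox6a1, the widely expressed partner of Cox6a2, read 41747, 42059 and 35839.6 in FLX, against 41257, 42939 and 47242 in VEH replicates 1 to 3, a log2 difference of -0.14 (SE 0.19). Replicates 1 and 2 were nearly equal between the groups and replicate 3 was not. Cox8a, a small membrane-spanning subunit, read 696, 611 and 393 in FLX, against 840.0, 651 and 450.0 in VEH arrays, at -0.19 (SE 0.34).

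Cox4i1, Cox7a2 and Cox6b1 were at -0.08 (SE 0.18), -0.06 (SE 0.22) and -0.02 (SE 0.23). The shared sign of the 9 genes rested on the arrays used and on the probe set chosen. Without the FLX replicate 3 array their median was 0.03, and without both replicate 3 arrays -0.01. Cox5a, Cox5b and Cox6c also had less bright probe sets above 0, at up to 0.03, 0.05 and 0.05. Ndufa4, once counted with complex I and now placed in complex IV, was at -0.01 (SE 0.24). Cox7a2l, which helps to join complexes III and IV into a supercomplex and carries a Cox symbol without being counted here as a subunit, was at -0.01 (SE 0.20).

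Among the isoforms of complex IV known from other tissues, Cox6b2 and Cox7a1 varied widely between arrays. Cox6b2, best known from testis, read 324, 439 and 48.6 in FLX, against 649, 496 and 127 in VEH replicates 1 to 3. Cox7a1, the isoform of heart and skeletal muscle, read 391, 429.9 and 141 in FLX, against 731, 446 and 209.5 in VEH arrays. Both were lower in FLX in all 3 pairs and far lower in the replicate 3 arrays of both groups than in replicates 1 and 2. The log2 difference was -0.86 (SE 1.01) for Cox6b2 and -0.51 (SE 0.62) for Cox7a1. With the replicate block the unadjusted p was 0.00862 and 0.0376 (limma, adjusted p of 0.623 or more). Without the FLX replicate 3 array Cox6b2 was at 0.13 and Cox7a1 at 0.00. VEH replicate 3, which stays in that fit, was the lowest VEH array for both. In pairs 1 and 2 Cox6b2 was at -1.004 and -0.175, and Cox7a1 at -0.901 and -0.054.

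The summed markers of meningeal and vessel-wall cells were also lowest in both replicate 3 arrays and highest in VEH replicate 1. The 8 leptomeningeal and fibroblast markers summed to 23835, 38690 and 2121 in FLX, against 40815, 39932 and 4511 in VEH replicates 1 to 3. Foxd1 was the largest term of that sum in VEH replicate 1, at 21499 there and 14607 in FLX replicate 2. Of those 8 markers 5 had a negative log2 difference, with a median of -0.26, and Dcn and Col1a2 were above 50 in every array. The 5 of 6 pericyte and smooth muscle markers that were tested, all 5 negative, summed to 4211, 5127 and 2089.7 in FLX, against 8430.0, 6005 and 2183 in VEH arrays. The 2 of 6 endothelial markers tested, both dim and both positive, summed to 146, 185 and 117 in FLX, against 201, 160 and 34.5 in VEH arrays. Single markers did not all follow the sums. Rgs5, a pericyte marker, was highest in the replicate 3 arrays, at 495, 270.1 and 1427 in FLX, against 475, 367 and 1220 in VEH replicates 1 to 3. Cspg4 was highest in VEH replicate 3, and Dcn, Lum, Col1a1, Col1a2, Col3a1, Slc6a13 and Pdgfrb in FLX replicate 2. The part that such cells play in the values of Cox6b2 and Cox7a1 was not tested.

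**Figure D2:**
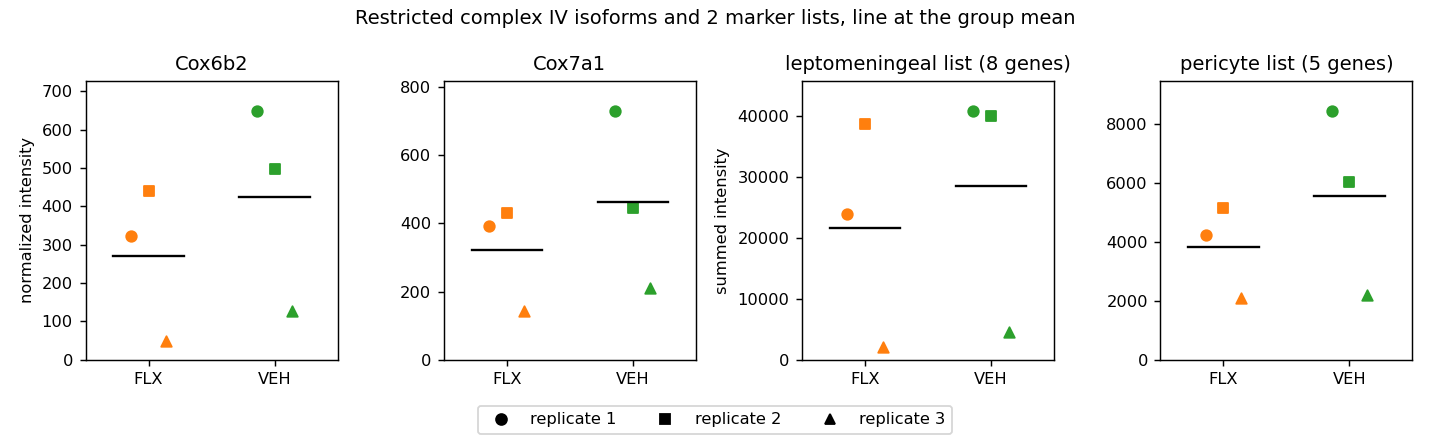
Normalized intensity of Cox6b2 and Cox7a1 and summed intensity of leptomeningeal and pericyte markers in each array (linear scales from 0), FLX left and VEH right, with the replicate number as marker shape and the group mean as a line. In all 4 panels VEH replicate 1 is highest, both replicate 3 arrays are lowest, and FLX replicate 2 is above FLX replicate 1.

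The other restricted isoforms were dim or overlapped between groups. Cox6a2, the heart and muscle partner of Cox6a1, read 263, 209.9 and 220.3 in FLX, against 173, 194 and 319 in VEH replicates 1 to 3, at 0.06 (SE 0.29). Cox8b, the heart and muscle partner of Cox8a, read 65.6, 62.6 and 36.5 in FLX, against 88.6, 53.4 and 54.9 in VEH arrays, at -0.26 (SE 0.34). Pair 2 ran opposite to pairs 1 and 3 for Cox8b, at 0.23. Cox4i2, the isoform of Cox4i1 induced by low oxygen, lay between 6.25 and 7.52 in all 6 arrays and was not tested. Cox7b2, Cox8c, Ndufa4l2, Cox7c and Ndufb4 were not tested either, with at most 36.2 in any array. Of these, Cox7c is a widely expressed complex IV subunit and Ndufb4 an accessory subunit of complex I. Whether the 2 dim probe sets of Cox7c report the level of that gene was not tested. For Ndufb4 the low value belongs to its own probe set: a brighter one that also names Ndufb4b and Ndufb4c read 19635, 18394 and 14814 in FLX, against 18492, 18579.5 and 15598 in VEH replicates 1 to 3.

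Complex V splits into the catalytic F1 part in the matrix and the Fo part in the membrane, joined by stalks. Of the 5 F1 genes 2 were negative. Atp5b, the catalytic beta subunit, read 28136, 28589.6 and 29484 in FLX, against 25514, 26511 and 26558 in VEH replicates 1 to 3. The groups did not overlap and the 3 pairs were alike, at 0.14, 0.11 and 0.15, for a log2 difference of 0.13 (SE 0.17). The moderated error of limma draws on all probe sets and is wider than the spread of these 6 values. Atp5c1, the gamma subunit that turns inside the catalytic ring, was at 0.07 (SE 0.18) and Atp5a1, the alpha subunit, at 0.02 (SE 0.24).

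Both negative genes encode small subunits at the foot of the central stalk. Atp5e, the epsilon subunit, read 6746, 6482 and 3496 in FLX, against 8462, 6879 and 8700.0 in VEH replicates 1 to 3. The groups did not overlap, FLX replicate 3 stood well below all other arrays, and the log2 difference was -0.58 (SE 0.31). Without both replicate 3 arrays it was -0.21. Atp5d, the delta subunit, read 17907, 16438 and 12845 in FLX, against 17189, 17224 and 19023 in VEH arrays, at -0.19 (SE 0.21). Its difference without both replicate 3 arrays was 0.00, so it lay in the third pair. The median over the 5 F1 genes was 0.02.

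The Fo part and the peripheral stalk had 7 of 12 genes below 0 and a median of -0.08. Atp5k, the e subunit, which helps ATP synthases to form dimers, read 22844, 22182 and 15436 in FLX, against 27713, 23587 and 24086 in VEH replicates 1 to 3. All FLX arrays were below all VEH arrays, at -0.34 (SE 0.23). Atp5l, the g subunit and its neighbour in the dimer interface, read 3539, 3418 and 2884 in FLX, against 4598, 3472 and 4240.4 in VEH arrays, at -0.32 (SE 0.21). FLX replicate 1 was above VEH replicate 2, so these groups overlapped. Without both replicate 3 arrays Atp5k was at -0.18 and Atp5l at -0.20. Among genes on the higher side, Atp5mpl and Atp5md, which encode small proteins bound to the Fo part, were at 0.15 (SE 0.34) and 0.09 (SE 0.25).

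The proton-carrying ring is made of c subunits from 3 genes, Atp5g1, Atp5g2 and Atp5g3, which encode the same mature protein behind different targeting sequences. Atp5g1 read 4238, 3685 and 3900.1 in FLX, against 4619, 4052 and 4949 in VEH replicates 1 to 3, lower in each pair, at -0.20 (SE 0.19). Atp5g2 averaged 2441 ± 37.5 in FLX and 2708 ± 366 in VEH arrays (SD, n = 3 each), at -0.14 (SE 0.19). Atp5g3 was at -0.03 (SE 0.17), with 29069.7 ± 878 in FLX and 29628 ± 960.0 in VEH arrays. The groups overlapped for all 3 genes, and none passed the threshold.

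Split by replicate number, the differences lay mostly in the third pair. The median log2 difference over the 86 genes was -0.02, -0.01 and -0.12 in pairs 1, 2 and 3, against 0.01, -0.01 and 0.15 over all tested genes. The typical size of a member's difference, its median absolute value, was 0.11, 0.06 and 0.26 in the 3 pairs, against 0.22, 0.11 and 0.36 for all tested genes. Pair 2 was thus the closest pair for members and for the rest alike. Negative members numbered 48, 48 and 53 of 86 in pairs 1, 2 and 3, against 5951, 6341 and 4704 of 12214 tested genes.

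The complexes did not share a direction in pair 3, in which 4704 of all 12214 tested genes were negative. Accessory subunits of complex I were at a median of -0.13 there, and widely expressed complex IV subunits at -0.19 with 8 of 9 negative. The restricted complex IV isoforms were at -0.58 with 4 of 4 negative. Complex II was at 0.41 with 1 of 4 negative, and the Nduf assembly factors at 0.33. In pair 1 the restricted isoforms were at -0.67 while every other set of more than 1 gene lay between -0.10 and 0.09. In pair 2 all such sets lay between -0.03 and 0.04.

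**Figure D3:**
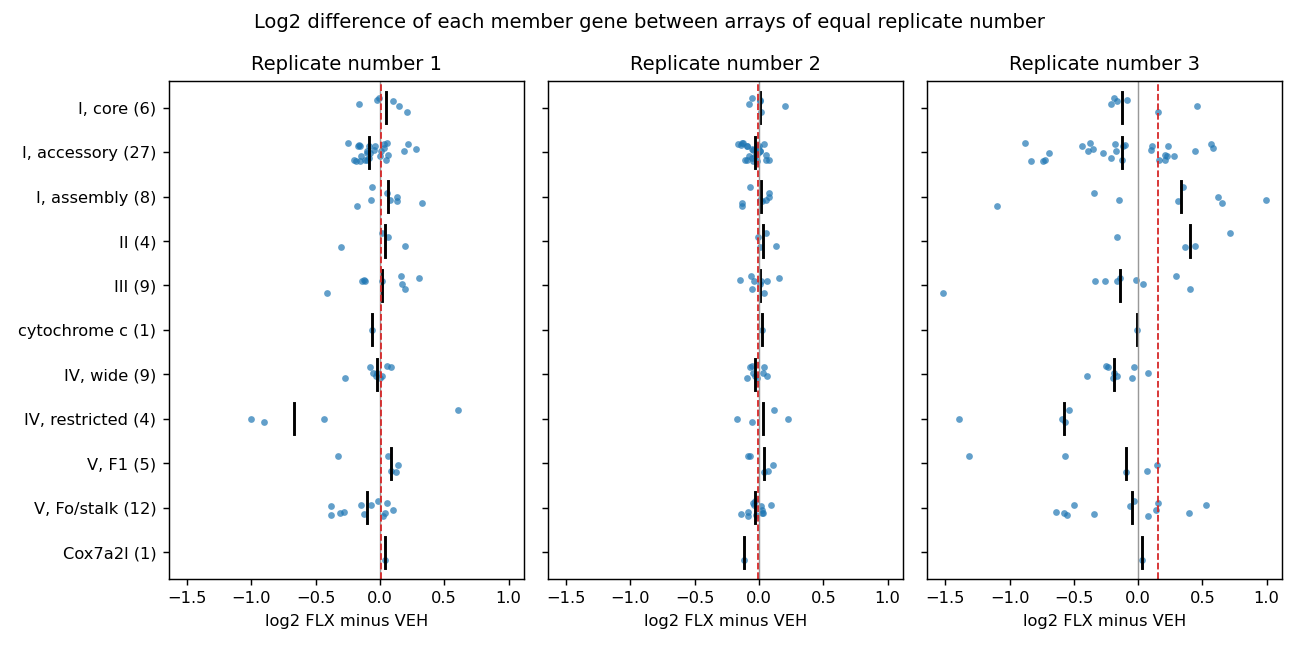
Log2 difference, FLX minus VEH, of each of the 86 genes (points) between arrays of the same replicate number, by complex with the number of genes in brackets. Black bars are the medians of a complex and the red dashed line is the median over all 12214 tested genes. Points lie close to 0 in pair 2 and spread widely in pair 3.

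Replicate 3 also differed from replicates 1 and 2 within each treatment. The replicate 3 value minus the mean of replicates 1 and 2 had a median of -0.22 over the members in FLX, with 59 of 86 negative, and of -0.02 in VEH, with 44 negative. Over all 12214 tested genes the medians were 0.06 in FLX, with 5720 negative, and -0.10 in VEH, with 6607 negative. The core subunits of complex I ran the other way from the accessory ones. For the core the median was 0.10 in FLX and 0.18 in VEH, and for the accessory subunits it was -0.31 in FLX and -0.16 in VEH. The restricted complex IV isoforms were at -1.17 in FLX and -0.89 in VEH. The F1 genes of complex V had 0 of 5 negative in VEH and 2 of 5 negative in FLX, namely Atp5e and Atp5d. What replicate 3 stands for is not given in the labels. RNA integrity, read as log2 of the 3′ over the 5′ probe set of Gapdh, was 2.11, 1.99 and 1.83 in FLX and 2.32, 2.07 and 1.83 in VEH replicates 1 to 3. That of Actb was 2.29, 2.18 and 2.32 in FLX and 2.34, 2.30 and 2.56 in VEH arrays. The part of RNA integrity in the differences of the members was not tested.

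**Figure D4:**
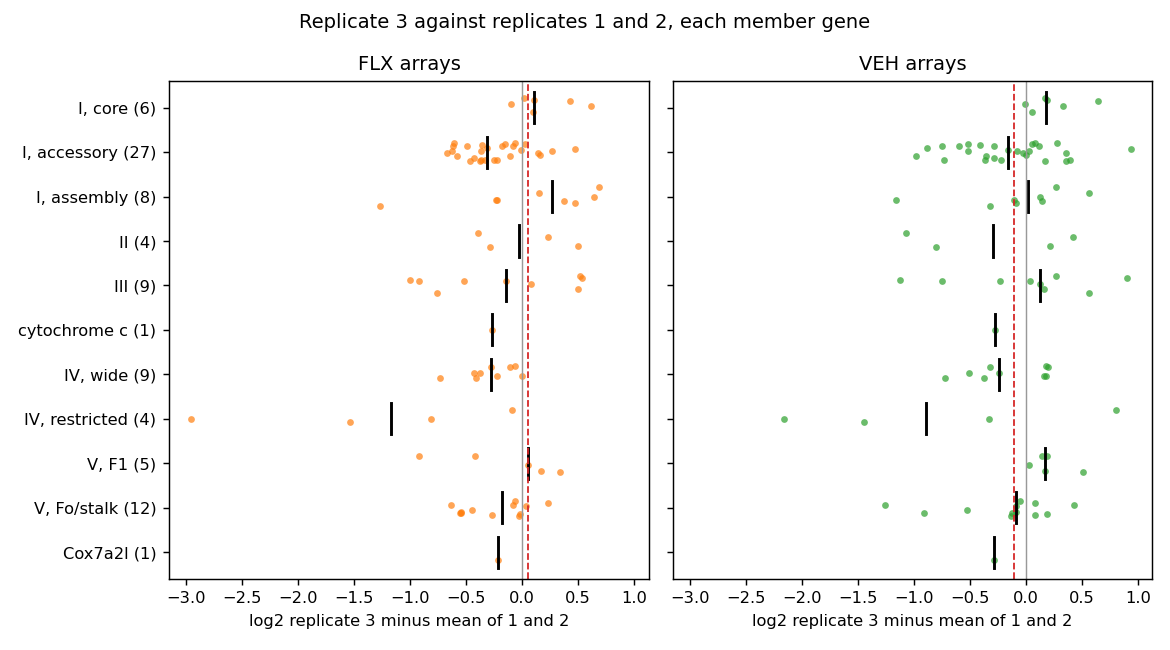
Log2 value of the replicate 3 array minus the mean of replicates 1 and 2 for each of the 86 genes (points), in FLX arrays (left) and VEH arrays (right), by complex with the number of genes in brackets. Black bars are medians of a complex and the red dashed line is the median over all tested genes. The medians of core and accessory subunits of complex I lie on different sides of 0 in both panels, and the restricted complex IV isoforms have the lowest median.

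Several probe sets of the same gene allow a check within an array. Of the 86 genes 47 had more than 1 tested probe set, and in 16 the probe sets had opposite signs. Uqcr10 and Ndufa7 held their sign across probe sets. The 5 probe sets of Ndufa7 were each lower in FLX in all 3 pairs, with log2 differences from -0.76 to -0.37. With the replicate block 3 of them had an unadjusted p under 0.05 (limma, adjusted p of 0.623 or more), but 3 of the 5 names end in x_at, a type that can match other transcripts.

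A spread of 0.5 or more with opposite signs was found in 3 genes. Atp5a1 ran from -0.53 to 0.19. Its lowest probe set read 334, 318 and 369 in FLX, against 349, 288 and 1183 in VEH replicates 1 to 3, so the difference came from VEH replicate 3 alone. Cycs ran from -0.02 to 0.54. Its highest difference belonged to a dim probe set that read 148, 174 and 216 in FLX, against 107, 125 and 137 in VEH arrays, with no overlap and a difference of 0.54 (SE 0.23, limma unadjusted p = 0.0551). Its brighter probe sets were between -0.02 and 0.15. Atp5g1 ran from -0.20 to 0.33, with the upper value in a probe set with a mean of 226. These 3 genes were picked for such a spread, and the gap between their bright and dim probe sets was not tested.

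**Figure D5:**
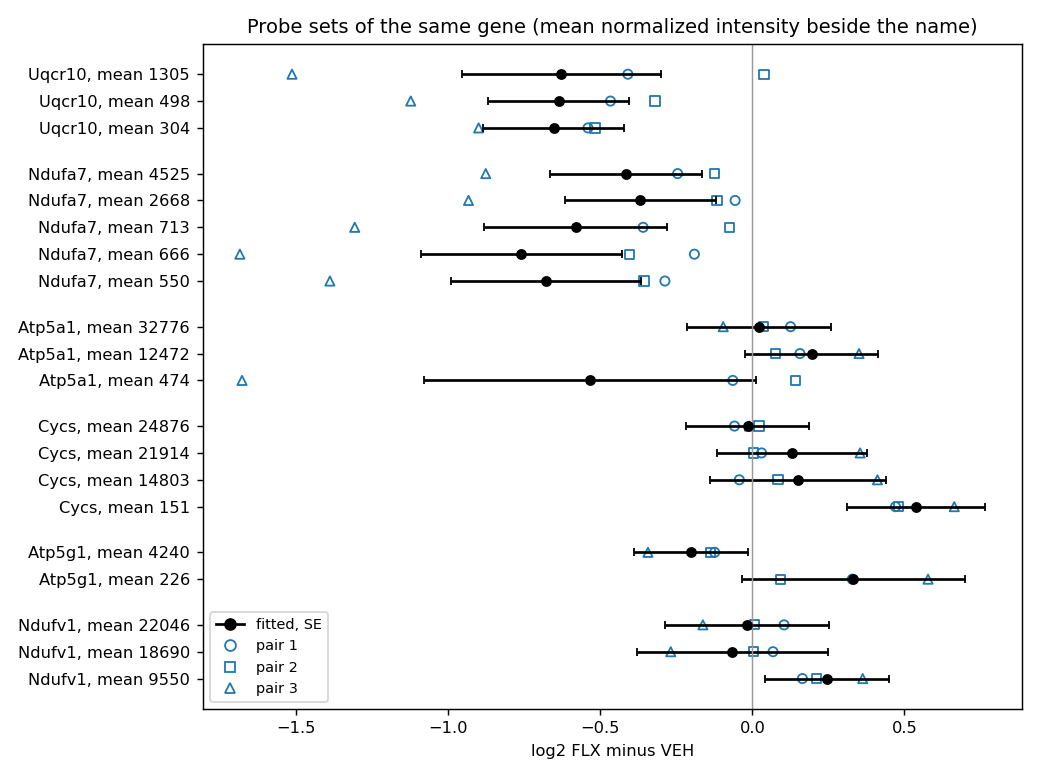
Fitted log2 difference, FLX minus VEH, with its SE (black) and the difference in each pair (blue symbols) for every tested probe set of 6 genes, with the mean intensity beside the name. Probe sets of Uqcr10 and Ndufa7 all have fitted differences below 0, while those of Atp5a1, Cycs, Atp5g1 and Ndufv1 lie on both sides of 0.

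Genes outside the symbol rule that serve the same process showed no shared direction. Of 35 assembly factors listed, 31 were tested, 15 were negative and the median was 0.02. Lrpprc, which stabilises mitochondrial mRNA and whose loss lowers complex IV, read 567, 628 and 846 in FLX, against 393, 421 and 626.0 in VEH replicates 1 to 3, higher in each pair, at 0.51 (SE 0.28). Uqcc2, an assembly factor of complex III, read 6732, 6052 and 4395 in FLX, against 7487, 6156 and 11477 in VEH arrays, lower in each pair, at -0.52 (SE 0.31). Timmdc1, an assembly factor of complex I, was at -0.54 (SE 0.38), and Tmem70, which is needed to build ATP synthase, at 0.39 (SE 0.22). Carriers, porins and kinases that serve the export of ATP, among them the creatine kinases Ckb and Ckmt1, had 8 of 10 listed symbols tested. Of these genes 3 were negative, and the median was 0.12. Regulators of mitochondrial gene expression had 12 of 13 tested, 4 negative and a median of 0.11, with Ppargc1a, a coactivator of mitochondrial biogenesis, at 0.26 (SE 0.28), Nrf1 at 0.01 (SE 0.18) and Gabpa at 0.24 (SE 0.38). With limma 0 of these genes passed the adjusted threshold and 0 had an unadjusted p under 0.05. From mitochondrial DNA only ND5 was tested, at 214, 210.4 and 28.5 in FLX, against 168, 436 and 24.7 in VEH replicates 1 to 3, and its direction differed between pairs.

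Many promoters of respiratory chain genes carry sites for NRF-1, an activator of nuclear genes for mitochondria, and for this reason the promoters of the members were read. RefSeq promoters (GRCm38.p6, 250 bases before to 50 after the start site) matched 75 of the 92 genes. The NRF-1 core GCGCATGC, on either strand, was in 12 of the 75 (16%), against 3.05% of 27025 promoters. The ETS site CCGGAAGT, bound by GABP, was in 5 (6.67%) against 4.31%, the YY1 core AAGATGGC in 10 (13.3%) against 3.19%, and TATAAA in 8 (10.7%) against 15.7%. Member promoters had a median of 59% G and C, against 52.8% in all promoters, and the share of a G and C rich word moves with that. Of the members tested, the 12 with the NRF-1 core had a median log2 difference of -0.04 with 8 negative, and the 60 without it -0.04 with 40 negative. The medians with and without this core were thus equal to 2 decimals. For the ETS site the medians were -0.10 over 5 genes with it and -0.04 over 67 without, for the YY1 core -0.01 over 10 and -0.04 over 62, and for TATAAA -0.26 over 7 and -0.04 over 65. The sets with a site are small, and these differences were not tested. The following stretches show the core, or overlapping cores, in capitals in 1 gene each of complexes I (an assembly factor), II, IV and V and in cytochrome c, written 5′ to 3′ along the gene's strand. They lie at chr4:24897945-24898004 (plus strand) for Ndufaf4, chr4:140961192-140961249 (plus) for Sdhb, chr6:50566597-50566654 (minus) for Cycs, chr5:115349086-115349145 (minus) for Cox6a1 and chr5:108434415-108434474 (minus) for Atp5k. The log2 differences of these genes were 0.38, -0.04, -0.02, -0.14 and -0.34 in the same order, which shows both signs behind the same core.
Ndufaf4: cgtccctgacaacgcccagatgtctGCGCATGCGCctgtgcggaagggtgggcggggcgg
Sdhb: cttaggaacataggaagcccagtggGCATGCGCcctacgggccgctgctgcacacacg
Cycs: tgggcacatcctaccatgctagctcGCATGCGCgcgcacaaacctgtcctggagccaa
Cox6a1: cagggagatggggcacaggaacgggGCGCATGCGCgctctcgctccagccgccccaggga
Atp5k: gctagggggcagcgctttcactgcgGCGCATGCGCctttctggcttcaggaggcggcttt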

How the data were processed

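Ribosome-bound RNA of 6 samples (3 FLX and 3 VEH) was measured on Affymetrix mouse arrays after amplification from 15 ng in 2 cycles, per the labels' protocols. The deposited values (1.60 to 76587) are linear intensities, 1 per probe set and array, which the authors normalized with GCRMA according to the submitters' processing notes, with no version stated. The submitters recommend dropping values under 50 and keeping a list of probe sets that was not used here. Of 45101 probe sets 64 are controls. Those with a mean of 50 or more in at least 1 group were compared by limma 3.58.1 (R 4.3.3) on log2 values without a pseudocount, with treatment alone in the model, two-sided, with Benjamini-Hochberg adjustment over 22200 probe sets and a threshold of 0.05. The fit was also run on simulated data with the spread of replicates 1 and 2 alone and planted changes larger than any member's. That run does not show how the fit performs with replicate 3 or for differences of the size seen here. A gene is represented by its probe set with the highest mean, and the number of arrays limits precision.

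Equal replicate numbers were taken as pairs: deviations from group means correlated at r = 0.70, 0.84 and 0.87, but unlike numbers 1 and 2 also at 0.64 and 0.76, so the labels' numbers set the pairs chiefly through replicate 3. Alternatives were the replicate number as a block, other filters, a pseudocount of 16, centred arrays, the mean of a gene's probe sets, no x_at or s_at probe sets, and arrays left out. Named were, per complex, the 2 genes with the smallest unadjusted p in each direction, isoform groups, and genes whose probe sets had opposite signs and differed by 0.5 or more. Other members, and genes of related lists, were named after their values were seen. Members and lists were chosen with earlier results of these data known.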

Additional observations from a re-analysis of the deposited data

How the results depend on the processing

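Precision is set by 3 arrays per group, and the replicate 3 arrays carry much of the spread. The count of probe sets passing limma's adjusted threshold was 0 among members and 0 among all tested probe sets under every alternative in which the test was rerun, while 83 of all probe sets had an unadjusted p under 0.05, or 1764 with the replicate block. The block leaves each fitted difference as it is, so the member median stayed at -0.04 with 54 negative genes and the block changed no call. Leaving out 1 array in turn moved the member median from -0.10 (without VEH replicate 3) to 0.0091 (without FLX replicate 3), and the count of negative genes from 37 to 60. The same range was -0.13 to 0.037 for complex I accessory subunits, 0.013 to 0.29 for Nduf assembly factors, -0.094 to 0.086 for the complex I core, 0.0065 to 0.21 for complex II, -0.075 to 0.013 for complex III, -0.14 to 0.033 for widely expressed and -0.68 to 0.050 for restricted complex IV isoforms, -0.088 to 0.13 for the F1 part, -0.14 to -0.035 for the Fo part and stalk, -0.11 to 0.074 for cytochrome c and -0.11 to 0.057 for Cox7a2l. When the probe sets of a gene were averaged the medians were 0.070 for complex III, -0.11 for the F1 part, -0.0003 for the Fo part and stalk and 0.20 for cytochrome c, and without x_at and s_at probe sets the F1 median was 0.16 over 2 genes. With centred arrays 59 genes were negative and the median was -0.06. The sign changed for 27 of the 86 genes without FLX replicate 3, 20 without VEH replicate 3, 19 without both and 17 without VEH replicate 1. The cause of these shifts was not tested.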
